A study of Mus musculus with 54 samples.

Results

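The striatum of mice with 1 gene-trapped copy of Mbd5 (Mbd5+/GT) was compared with that of their WT littermates by polyA RNA-seq. Every library whose label named the striatum was taken, which gave 18 of the 54 libraries of the series, 10 from Mbd5+/GT mice and 8 from WT mice, with 1 library per mouse. The remaining 36 libraries came from the cortex and the cerebellum of the same mice, 18 from each. All mice were 8 weeks old and had a C57BL/6 background. In the Mbd5+/GT mice a gene-trap construct sat in the second intron of 1 Mbd5 allele in every cell, which left a hypomorphic rather than a null allele, and no treatment was given to either genotype. Litter 1 held 3 Mbd5+/GT and 3 WT females. Litter 2 held 4 Mbd5+/GT males and 1 WT male. Litter 3 held 1 Mbd5+/GT male and 2 Mbd5+/GT females beside 2 WT males and 2 WT females. Both WT males of litter 3 were labelled as repeated libraries.

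MBD5 carries a methyl-CpG-binding domain, and loss of 1 copy of the human gene on 2q23.1 causes intellectual disability with seizures, autistic features and disturbed sleep. It has been found together with the PR-DUB complex, in which BAP1 and an ASXL protein remove ubiquitin from histone H2A. The striatum is built mostly of GABAergic projection neurons, which form a direct pathway marked by the dopamine receptor Drd1 and an indirect pathway marked by Drd2, with a minority of cholinergic and GABAergic interneurons and no resident glutamatergic projection neurons.

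The striatum libraries held between 26130088 and 32110274 reads counted on genes. Synthetic ERCC spike-ins took 0.092% to 0.728% of the counts, with a median of 0.194% in Mbd5+/GT and 0.517% in WT libraries. This difference was not tested. Any 2 libraries of a genotype differed by a chi-square of at least 21.9 per gene over 73 pairs, where counting error alone gives about 1, so none of these pairs was a copy. Pairs of different genotypes were not compared. The transcript Gm42418, which overlaps ribosomal RNA, took 6.89% of the counts in Mbd5+/GT replicate 8 and 9.49% in WT replicate 6, against a median of 0.164% over the 18 libraries.

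The label was checked against the markers of striatal neurons before any comparison, and 2 libraries went against it. Values are given as CPM, which scales each library to the same total with TMM factors. In WT replicate 7, Drd2 was at 2.86, Drd1 at 11.8, Adora2a at 6.54 and Ppp1r1b, which encodes the dopamine-regulated phosphatase inhibitor DARPP-32, at 56.3 CPM. In WT replicate 2, Drd2 was at 17.5, Drd1 at 27.6 and Ppp1r1b at 167 CPM. Both libraries were below all the others in each of these genes. In the other 16 libraries Drd2 ran from 29.5 to 213 CPM, Drd1 from 76.4 to 324 CPM and Ppp1r1b from 363 to 2689 CPM. The 18 cortex libraries held 51 to 485 CPM of Ppp1r1b, so that WT replicates 2 and 7 lay within the cortex range of this gene, as did 3 Mbd5+/GT libraries. Gad1, a gene of GABA synthesis, did not follow the cortex. It was at 629 and 682 CPM in WT replicates 2 and 7. The cortex libraries held 265 to 510 CPM of it and the other 16 striatum libraries 310 to 598 CPM. Slc17a7, the vesicular glutamate transporter of cortical neurons, ran from 14.4 to 1078 CPM in striatum and was inside the cortex range of 455 to 1271 CPM in 12 of 18 striatum libraries, 7 Mbd5+/GT and 5 WT. In WT replicate 2 it was below that range, at 352 CPM, and in WT replicate 7 inside it, at 858 CPM. The amount of cortical or other tissue in a dissection and a change within cells cannot be told apart in such libraries. Nor can fewer cells of a type be told apart from less RNA per cell.

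**Figure D1:**
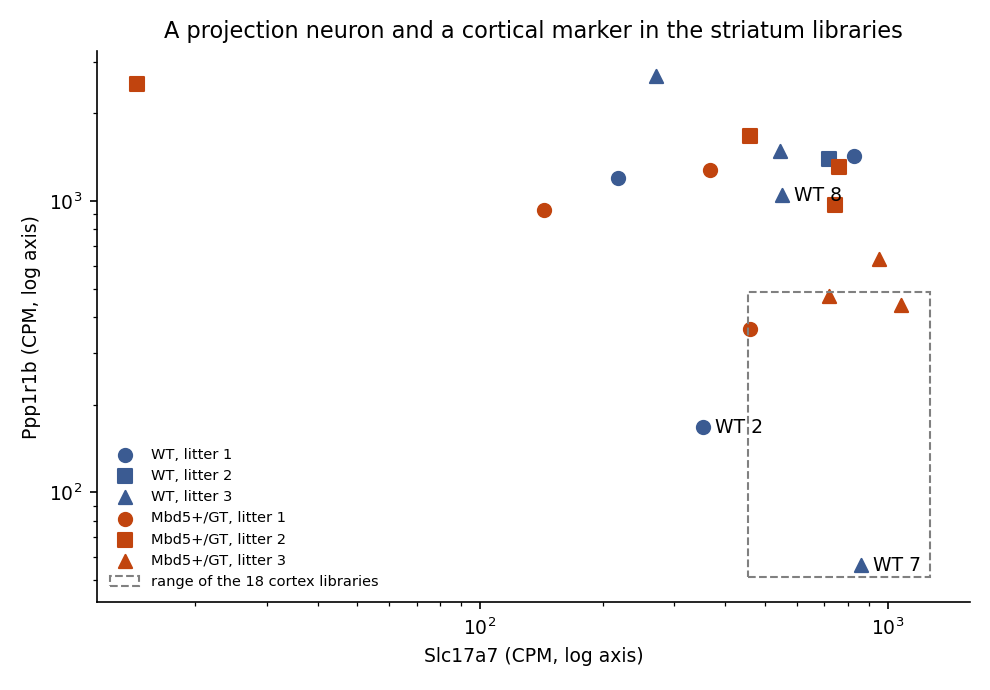
Ppp1r1b against Slc17a7 (both in CPM, log axes) in the 18 striatum libraries, with colour for genotype, shape for litter, and a dashed box for the range of both genes in the 18 cortex libraries. WT replicates 2 and 7 had the lowest Ppp1r1b (167 and 56.3 CPM), while WT replicate 8 (1049 CPM) lay among the other libraries.

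Choroid plexus RNA also differed between dissections. Ttr, the transthyretin transcript of choroid plexus, ran from 6.505 CPM with a median of 112 CPM up to 3825 CPM in Mbd5+/GT mice, and from 7.58 CPM with a median of 63.2 CPM up to 5969 CPM in WT mice. It was at 2513 CPM or more in Mbd5+/GT replicates 1 and 3 and in WT replicates 3 and 5, and at 472 CPM or less in all the others. The genotypes overlapped over nearly the whole range.

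Mbd5 was the only gene with an adjusted p under 0.05. Its annotated span is 48949508 to 49325405 of chromosome 2 (GRCm38, plus strand). Its level in Mbd5+/GT mice ran from 26.7 CPM through a median of 37.3 to 41.3 CPM, and in WT mice from 36.3 through 48.1 to 62.2 CPM. Every one of the 10 Mbd5+/GT values was under the WT median and 3 were under every WT value, but the groups overlapped because WT replicate 2 had the lowest WT value. The mean was 36.3 ± 4.75 CPM (SD, n = 10) against 48.9 ± 8.08 CPM (SD, n = 8), which is 74.2% of WT. The fitted log2 fold change of Mbd5+/GT over WT was -0.51 (standard error 0.048), with an adjusted p of 9.4e-05 by edgeR's quasi-likelihood test with 4 surrogate variables and Benjamini-Hochberg adjustment over 18546 genes. Only 0.00539% of the genes tested were called at that level. Without WT replicates 2 and 7 a 2-sided exact permutation test of log2 CPM, which used no surrogate variables, gave a difference of -0.51 and p = 0.000125 over 8008 assignments of genotype, against -0.42 and p = 0.000617 over 43758 with all libraries.

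**Figure D2:**
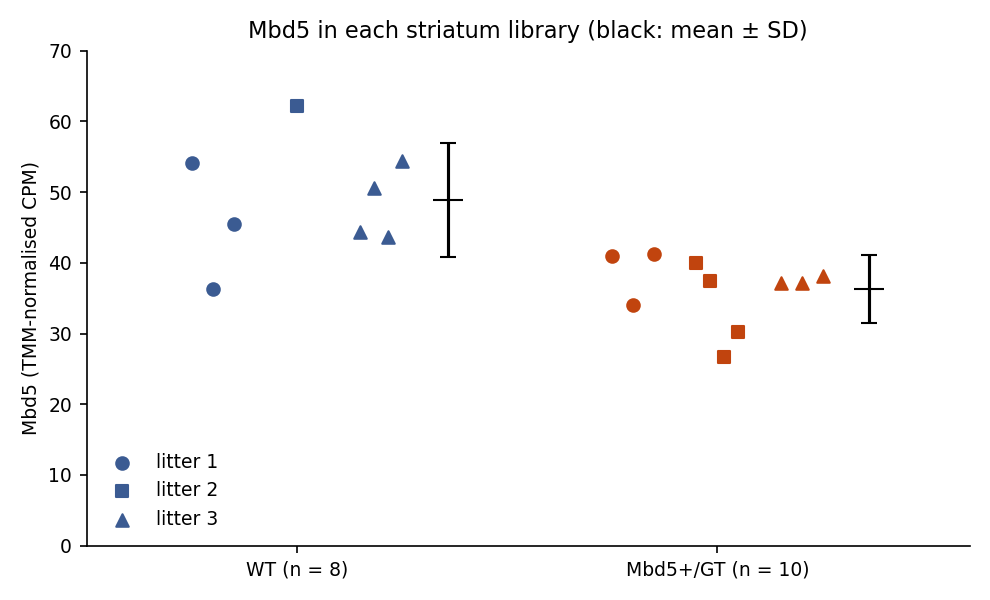
Mbd5 in CPM (linear axis from 0) in each of the 8 WT and 10 Mbd5+/GT striatum libraries, with shape for litter and black bars for the mean ± SD of a genotype. The Mbd5+/GT mice sat between 26.7 and 41.3 CPM and the WT mice between 36.3 and 62.2 CPM, and the only WT mouse of litter 2 was the highest of all.

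The starts of 3 genes are printed here, since they were the only ones that a second test, DESeq2's Wald test, called at an adjusted p under 0.05: Mbd5 and Arhgdib, which fell in that test, and Zfp131, which rose in it. Each run is the 250 bases before the start that RefSeq annotates nearest to the gene's 5′ end (GRCm38.p6), read 5′ to 3′ on the gene's strand, and capitals mark CpG, the dinucleotide that carries DNA methylation and that gives the methyl-CpG-binding domain its name. The runs lie at chr2:48949258-48949507 on the plus strand for Mbd5, chr13:119790733-119790982 on the minus strand for Zfp131 and chr6:136941900-136942149 on the minus strand for Arhgdib.
Mbd5: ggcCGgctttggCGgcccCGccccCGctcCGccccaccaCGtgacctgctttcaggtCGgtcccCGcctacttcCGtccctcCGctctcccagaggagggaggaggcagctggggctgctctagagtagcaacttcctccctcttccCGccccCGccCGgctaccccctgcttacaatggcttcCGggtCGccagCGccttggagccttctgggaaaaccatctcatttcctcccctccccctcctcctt
Zfp131: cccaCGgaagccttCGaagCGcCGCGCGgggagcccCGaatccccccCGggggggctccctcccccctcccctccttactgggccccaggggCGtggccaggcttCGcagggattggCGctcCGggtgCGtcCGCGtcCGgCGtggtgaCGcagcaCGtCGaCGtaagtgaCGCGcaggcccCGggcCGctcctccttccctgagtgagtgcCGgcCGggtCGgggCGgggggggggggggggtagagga
Arhgdib: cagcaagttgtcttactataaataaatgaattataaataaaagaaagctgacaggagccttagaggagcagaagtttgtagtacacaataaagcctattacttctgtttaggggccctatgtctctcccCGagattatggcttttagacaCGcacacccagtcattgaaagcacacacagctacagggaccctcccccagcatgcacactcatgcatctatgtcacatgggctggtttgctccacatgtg
The run of Mbd5 held 16 CpG, that of Zfp131 29 and that of Arhgdib 2. Of 32851 starts in the same table, 92.1% held at least 1 CpG in this window (the motif CG, which is the same on both strands), with a median of 6. The window is a description of sequence only, since neither methylation nor binding was measured.

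The other members of the methyl-CpG-binding domain family did not move past the threshold. Of 11 members tested, 1 was nominally lower, which was Mbd5 itself, 0 were nominally higher, and the median log2 fold change was 0.00, against -0.01 over all genes tested. Here and below a gene is called nominally higher or lower in Mbd5+/GT mice when its unadjusted p was under 0.05 (an nDEG), a level that 4.24% of all genes tested passed upwards and 3.20% downwards. Mbd6, the closest relative of Mbd5, had a log2 fold change of -0.04 (standard error 0.10). Mbd4, a thymine glycosylase, had the smallest p of the others, with 0.11 (standard error 0.072, unadjusted p = 0.15). Of the 9 genes of PR-DUB and its partners, 0 were nominally higher and 0 nominally lower. Their fitted differences ran from -0.08 for Bap1, the deubiquitinase (standard error 0.053), to 0.19 for Kdm1b, a histone demethylase (standard error 0.11), and Ogt, the O-GlcNAc transferase, was at 0.07 (standard error 0.063).

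Of 18546 genes, 786 were nominally higher and 594 nominally lower, Mbd5 among the latter. The changes were small, with a median size of 0.20 on the log2 scale among the higher genes and 0.23 among the lower. None but Mbd5 kept an adjusted p under 0.05, and the other named genes all had an adjusted p of 0.63 by edgeR's test. Litter 2, with its lone WT mouse, separated both sets of genes. Of the nominally higher genes, 95.5% were higher within litter 1, 80.0% within litter 2 and 97.5% within litter 3. Over all genes tested the shares of the same direction were 66.4%, 56.6% and 71.7%. Of the nominally lower genes, 87.5% were lower within litter 1, 49.2% within litter 2 and 94.4% within litter 3. These shares describe the mice that the fit itself used.

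The 12 protein-coding genes with the smallest p among the higher ones had roles in transcription, membranes and cilia, among others, and each was higher within all 3 litters. Zfp131, a BTB zinc finger transcription factor (chromosome 13, 119765187 to 119790889), ran from 33.4 through 38.4 to 46.1 CPM in Mbd5+/GT mice and from 24.3 through 30.9 to 37.0 CPM in WT mice. All 10 Mbd5+/GT mice lay above the WT median and 7 above every WT mouse. The fitted log2 fold change was 0.27 with a standard error of 0.053, and the adjusted p was 0.63 by edgeR and 0.0079 by DESeq2. Fut9, the fucosyltransferase that makes the Lewis X epitope, ran from 49.4 through 88.9 to 127 CPM in Mbd5+/GT mice and from 31.5 through 44.4 to 108 CPM in WT mice, a log2 fold change of 0.49 (standard error 0.12). The groups overlapped, with all 10 Mbd5+/GT mice above the WT median and 3 above every WT mouse. Ttbk2, a kinase that starts the growth of the primary cilium, ran from 48.6 through 62.9 to 94.1 CPM and from 37.5 through 48.6 to 66.6 CPM. Togaram1, a microtubule protein of the cilium, ran from 37.1 through 43.2 to 52.2 CPM and from 21.7 through 29.7 to 51.7 CPM. Their log2 fold changes were 0.25 and 0.30, and all 10 Mbd5+/GT mice were above the WT median in either gene. Abca5, a lipid transporter, was at 0.26 on the same scale, Chm, the Rab escort protein, at 0.36, and Cdc73, a subunit of the Paf1 elongation complex, at 0.26. Pou3f2, a neuronal transcription factor, was at 0.31, Gopc, a Golgi PDZ protein, at 0.19, and Suco, a membrane protein of the endoplasmic reticulum, at 0.18. Zfp991, which has near-identical relatives that leave its counts uncertain, was at 1.02 (standard error 0.23) on a median of 1.53 CPM against 0.72 CPM. The longest transcripts of these 12 genes were between 2813 and 12134 bases long, and 11 of 12 were in the lowest quartile of GC content.

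The lower genes were of another kind, short and richer in GC, and litter 2 often went against them. Arhgdib, a GDP dissociation inhibitor of small GTPases in blood cells (chromosome 6, 136923655 to 136941899), ran from 8.85 through 20.7 to 44.3 CPM in Mbd5+/GT mice and from 11.4 through 28.8 to 53.4 CPM in WT mice. The fitted log2 fold change was -0.43 with a standard error of 0.087, and the adjusted p was 0.63 by edgeR and 0.034 by DESeq2, but within litter 2 the difference was 0.15, and without surrogate variables the unadjusted p was 0.21. Parvg, the parvin of blood cells, ran from 3.56 through 4.17 to 5.56 CPM and from 4.97 through 5.38 to 6.57 CPM. On the log2 scale the fitted change was -0.42 (standard error 0.093), and 8 of 10 Mbd5+/GT mice lay below every WT mouse. Uqcr11, a subunit of respiratory complex III, ran from 51.5 through 96.7 to 137 CPM and from 94.3 through 135 to 161 CPM, a log2 fold change of -0.31 (standard error 0.079). Smdt1, a subunit of the mitochondrial calcium uniporter, ran from 52.3 through 77.4 to 109 CPM and from 71.6 through 97.3 to 129 CPM, a log2 fold change of -0.18 (standard error 0.047). Within litter 2 both mitochondrial genes were higher in the Mbd5+/GT mice, by 0.31 and 0.25. The fitted log2 fold changes of the rest were -0.34 for Acvrl1, a BMP receptor of endothelium, -0.32 for Ust, a uronyl sulfotransferase, -0.31 for Mcrip2, -0.29 for Arl4d, a small GTPase, -0.25 for 2410015M20Rik and -0.18 for Rab40c, a Rab GTPase with a SOCS box. Mindy4b-ps, whose family holds similar genes, was at -0.80 (standard error 0.19) on medians of 1.13 and 1.90 CPM. Beside Mbd5, 11 genes were named by this rule, of which 4 were lower in all 3 litters and 7 were higher within litter 2. Of these 11, 10 had a transcript GC above the median.

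Few of these genes passed every way of fitting the counts. Over 9 planned and 4 added alternatives, 4 nominally higher and 8 nominally lower genes kept an unadjusted p under 0.05 and their direction in all 13. They are a description, since they were picked by these fits. Beside Mbd5, Zfp131, Ttbk2 and Parvg they were Eya1, a transcriptional coactivator, Snrpd2, a core protein of the spliceosome, Mxd4, a repressor of the Myc network, Rgcc, a regulator of the cell cycle, Tmem252, Gm10177, A930004D18Rik and 3632454L22Rik. Eya1 ran from 4.63 through 6.35 to 8.34 CPM in Mbd5+/GT mice and from 6.13 through 7.71 to 10.9 CPM in WT mice, a log2 fold change of -0.40 (standard error 0.11). Mxd4 ran from 99.0 through 104 to 128 CPM and from 101 through 123.3 to 140 CPM, a log2 fold change of -0.21 (standard error 0.058). Tmem252 ran from 0.559 through 1.47 to 2.49 CPM and from 1.83 through 2.09 to 3.56 CPM, a log2 fold change of -0.73 (standard error 0.20). The genotypes overlapped in each of these 3 genes. Within litter 2 the difference was of the opposite sign for Snrpd2 (0.36), Rgcc (0.22) and 3632454L22Rik (-0.14). Eya1 was at 0.0081 within litter 1, and the others kept their sign within all 3 litters.

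With all libraries, the nominal differences varied with the base composition and the length of the transcripts. This was examined over 13754 protein-coding genes with a mean of at least 1 CPM, by quartiles of the GC content and of the length of a gene's longest annotated transcript. In the quartile with the lowest GC, 518 of 3439 genes were nominally higher (15.1%) and 22 nominally lower (0.640%). In the quartile with the highest GC, 23 were nominally higher (0.669%) and 177 nominally lower (5.15%). The order was steady, with 106 and then 34 genes higher in the quartiles between. By length, 345 genes were nominally higher and 49 lower in the longest quartile, against 54 and 259 in the shortest. The median transcript of the nominally higher genes had 42.0% GC and 4602 bases, that of the lower genes 53.1% GC and 1984 bases, and that of all genes tested 49.6% GC and 3063 bases. Without litter 2 the pattern in the higher genes was not seen, with 23 of 3435 genes nominally higher and 11 lower in the lowest GC quartile. Over all 17982 genes of that fit only 119 were higher and 164 lower. It used fewer mice and estimated its surrogate variables anew, so it does not show that litter 2 carried the pattern. Without WT replicates 2 and 7 that quartile held 150 higher and 24 lower genes. The cause was not tested.

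**Figure D3:**
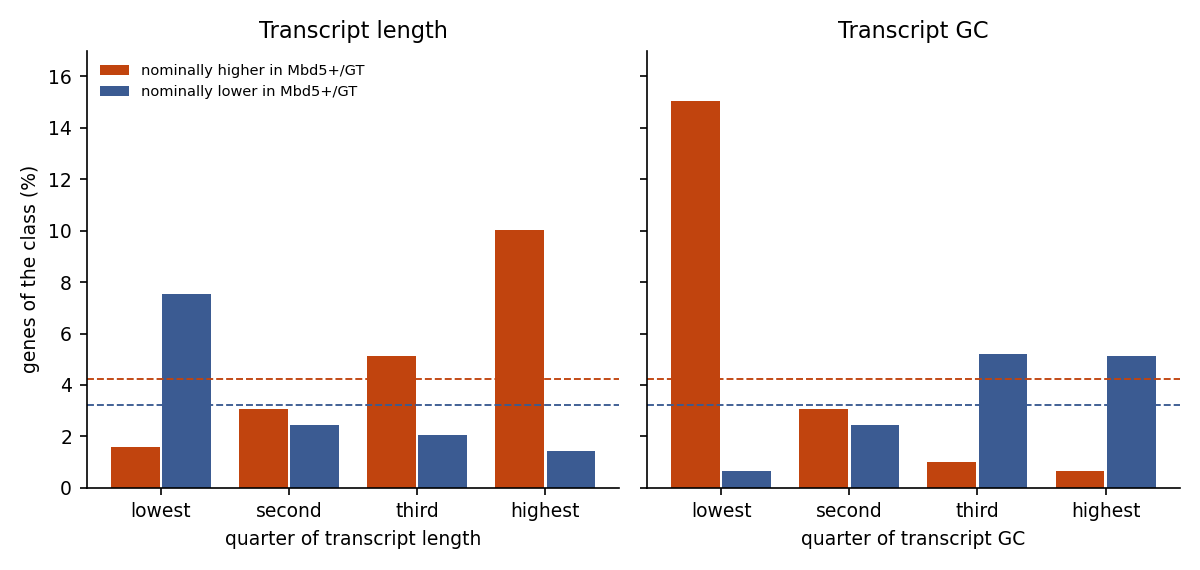
Share of genes (%) that were nominally higher (orange) or lower (blue) in Mbd5+/GT striatum, by quartile of transcript length (left) and transcript GC (right), with dashed lines for the shares over all genes tested (4.24% and 3.20%). The higher genes rose to 15.1% in the lowest quartile of GC and the lower genes to 7.53% in the lowest quartile of length.

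The same axis was read off each library as a GC score, the median log2 deviation of the highest quartile of GC minus that of the lowest, and as a length score built in the same way. The GC score ran from -0.43 through -0.07 to 0.21 in Mbd5+/GT mice and from -0.29 through 0.19 to 0.36 in WT mice. WT replicates 3 and 8 were at -0.19 and -0.29, beside the Mbd5+/GT mice, while the other 6 WT libraries were between 0.15 and 0.36. In litter 1 the Mbd5+/GT mice were at -0.43, -0.21 and -0.36 and the WT mice at 0.28, 0.25 and -0.19. In litter 2 they were at 0.09, 0.00, 0.21 and -0.04 against 0.15. In litter 3 they were at 0.10, -0.10 and -0.25 against 0.16, 0.36, 0.22 and -0.29. The mean was -0.10 ± 0.21 (SD, n = 10) against 0.12 ± 0.23 (SD, n = 8), a difference of -0.21 with p = 0.058 in a 2-sided exact permutation test (0.12 after adjustment over the 2 scores). The length score ran from -0.29 to 0.47 and from -0.51 to 0.25, and its difference of 0.18 had p = 0.14 in the same exact test (0.14 adjusted). With all libraries neither score passed 0.05. Without WT replicate 8 the difference was -0.27 with p = 0.015 for the GC score and 0.23 with p = 0.069 for the length score in the same exact permutation test, unadjusted. That library had the lowest GC score and the highest length score of the WT mice. Leaving it out therefore widens both differences by construction, and these values are a description only. Both scores were chosen after the gene-level results were seen.

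**Figure D4:**
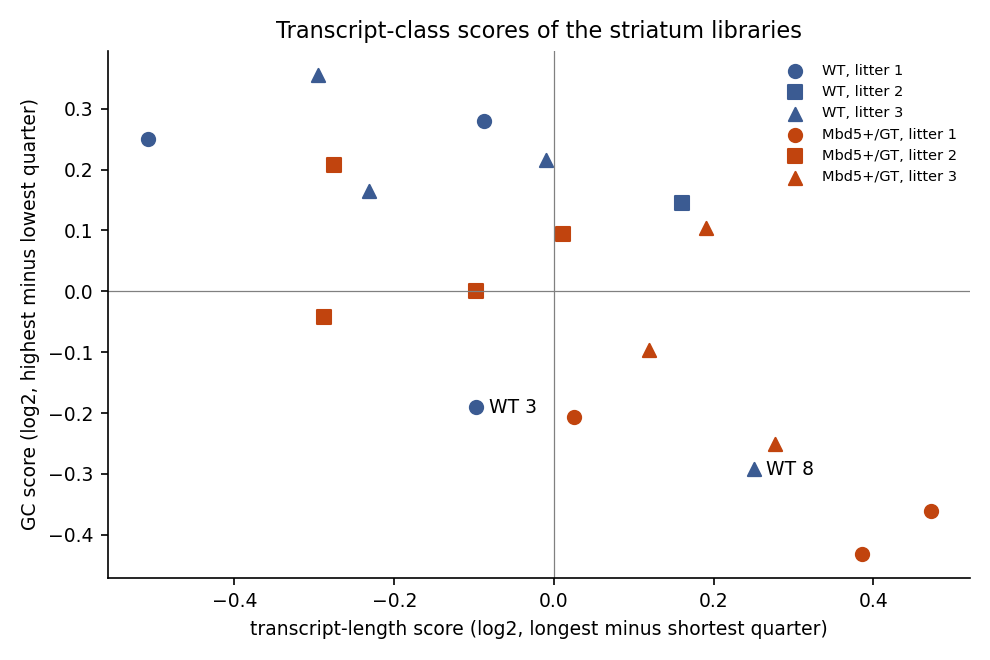
GC score against transcript-length score (both in log2 units) of the 18 striatum libraries, with colour for genotype and shape for litter. Most WT libraries were at a GC score between 0.15 and 0.36, whereas WT replicates 3 and 8 (-0.19 and -0.29) lay among the Mbd5+/GT libraries.

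The number of genes that passed the adjusted threshold changed most in the fit without 1 WT mouse. Each fit without a library filtered the genes and estimated its surrogate variables anew, so the count is not a measure of that mouse alone. Without WT replicate 8, which had the lowest GC score and the highest length score of the WT mice (0.25), edgeR's test called 485 of 18454 genes, 447 higher and 38 lower, in place of 1. Among the 457 of them with a GC class, 388 were in the lowest quartile of GC. Of the 485, 399 were nDEGs of the same direction on all libraries. They held 19 of the 23 named genes other than Mbd5, with adjusted p from 0.010 to 0.035 by edgeR, and Parvg, Mindy4b-ps, Ust and Arl4d were not among them. Of the lists described next, the 485 genes held 24 of the 380 zinc finger genes and 6 of the 13 syndrome genes. They also held 5 of the 26 stress granule genes and 5 of the 76 oxidative phosphorylation genes. These list sizes are those tested on all libraries. Without any other single library, 1 to 3 genes were called. WT replicate 8 had the highest summed astrocyte markers of the WT mice (5242 CPM, against 4400 to 4735 CPM in the other 7), and its Ppp1r1b (1049 CPM) was inside the range of the other libraries. It also had the lowest ERCC share of the WT libraries (0.129%). Whether its scores or its ERCC share account for the count was not tested.

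When each library's GC score was added to the fit, 400 genes were nominally higher and 363 lower, and the lowest quartile of GC held 77 higher and 39 lower genes, against 518 and 22. The score was computed from the same quartiles in the same libraries, so adding it takes up the difference between quartiles by construction. Its means also differed between genotypes (-0.10 and 0.12), so it can take up a genotype difference as well. Only 20.7% of the nominally higher and 38.9% of the lower genes were shared with the fit without the score. With the length score added, 603 were higher and 667 lower, and 279 and 35 in the lowest quartile of GC. Mbd5 was called in both. Counts with these scores, or with libraries left out, stand beside those gene groups below whose counts they moved most. They describe how the counts moved and do not test the groups. Whether a group's share differed from that of genes of like GC content was not tested either. For the counts without litter 2, the background was 119 higher and 164 lower of 17982 genes. Without WT replicates 2 and 7 it was 312 and 688 of 18327 genes. With litter and sex as covariates it was 1037 and 673 of 18546 genes, and without surrogate variables 689 and 320.

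Genes for the respiratory chain and the ribosome were the largest groups on the lower side. Of 76 nuclear-encoded genes of oxidative phosphorylation, 24 were nominally lower (31.6%, against 3.20% of all genes) and 0 higher, and the median log2 fold change was -0.11. Atp5e, a small subunit of ATP synthase, ran from 56.4 through 94.6 to 146 CPM in Mbd5+/GT mice and from 92.9 through 134 to 174 CPM in WT mice, a log2 fold change of -0.35 (standard error 0.090, unadjusted p = 0.0013 by edgeR). Atp5b, the catalytic subunit and the most abundant of the list, had -0.12 (standard error 0.061, unadjusted p = 0.067 by edgeR). Within litter 2 the differences were 0.15 for Atp5e and 0.08 for Atp5b, so that both were higher there. With the GC score in the fit 14 of the 76 were nominally lower, with the length score 3, without litter 2 there were 0, without surrogate variables 9, and without WT replicates 2 and 7 there were 21. With litter and sex as covariates there were 31. The list's transcripts had a median length of 1094 bases.

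Of 81 cytosolic ribosomal protein genes, 12 were nominally lower (14.8%) and 0 higher, with a median of -0.08 and 79 of 81 fitted values below 0. Rps14 ran from 130 through 211 to 332 CPM in Mbd5+/GT mice and from 203 through 314 to 325 CPM in WT mice, a log2 fold change of -0.34 (standard error 0.10). Rpl27 was at -0.19 (standard error 0.057), and Rpl4, the most abundant, at -0.01 (standard error 0.049). The count was 7 with the GC score in the fit and 0 with the length score. It was 39 with litter and sex as covariates, 16 without WT replicates 2 and 7, 5 without surrogate variables and 2 without litter 2. Many ribosomal protein genes have processed pseudogenes that share their reads, so their counts are uncertain.

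The mRNAs encoded by the mitochondrial genome lay on the other side. Of 13, 4 were nominally higher and 0 lower, with all 13 fitted values above 0 and a median of 0.30. The 2 with the smallest p were mt-Co3 at 0.37 (standard error 0.15) and mt-Nd4l at 0.55 (standard error 0.24). Their means were only 8.23 and 0.387 CPM, so these 2 calls rest on low counts. mt-Co1, a subunit of cytochrome oxidase and the most abundant, ran from 13420 through 19132 to 21299 CPM in Mbd5+/GT mice and from 12452 through 13646 to 22123 CPM in WT mice, a log2 fold change of 0.15 (standard error 0.083, unadjusted p = 0.097 by edgeR). Summed, they took 3.67% to 6.48% of the counts in Mbd5+/GT mice and 3.54% to 6.42% in WT mice. The ranges overlapped nearly in full, with medians of 5.48% and 4.13%. These mRNAs have 37.1% GC at the median, and 0 of 13 were nominally higher with the GC score in the fit, 1 with the length score, and 0 without litter 2, where the median was 0.05. Without WT replicates 2 and 7 there were 0, and without surrogate variables 6.

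**Figure D5:**
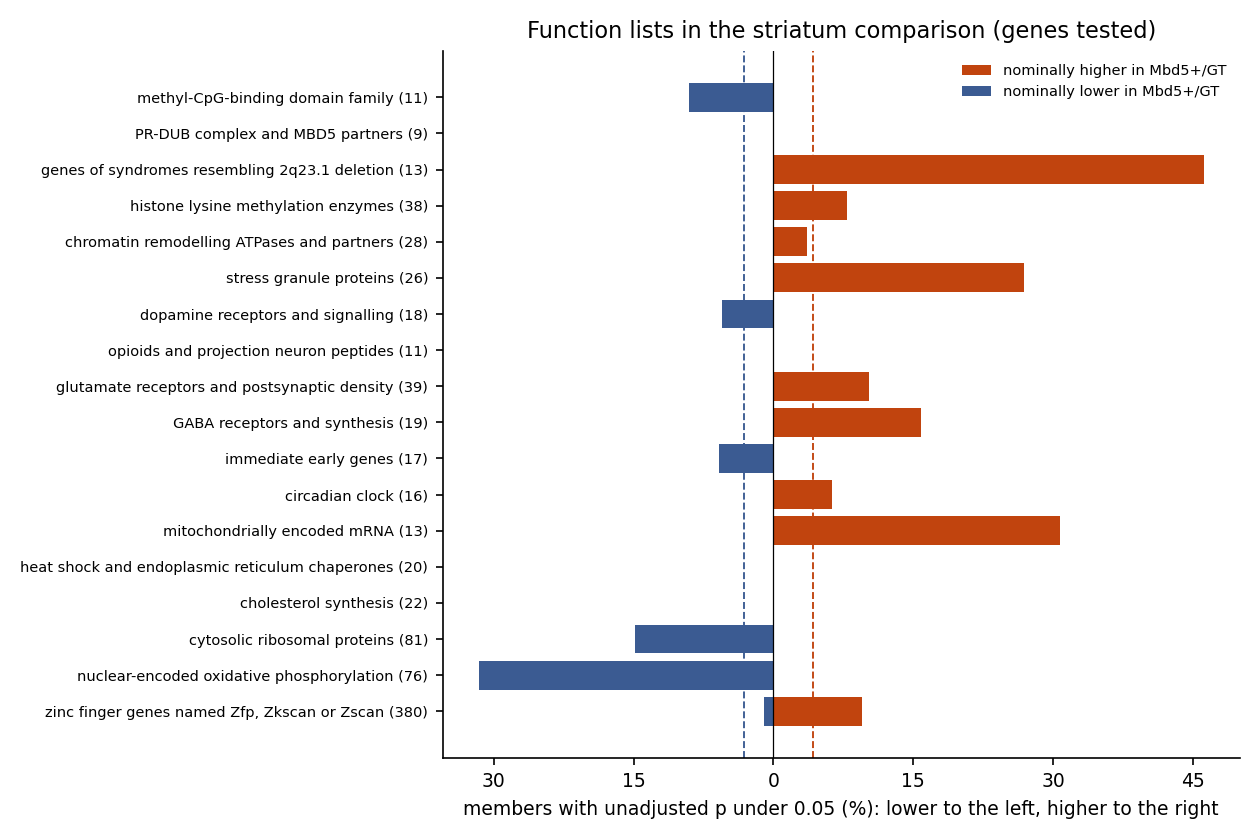
Share of the tested members of each function list (%) that were nominally higher (orange, to the right) or lower (blue, to the left) in Mbd5+/GT striatum, with the number tested in brackets and dashed lines for the shares over all genes (4.24% and 3.20%). Oxidative phosphorylation (31.6%) and ribosomal protein genes (14.8%) lay on the lower side and the syndrome (46.2%) and stress granule (26.9%) lists on the higher side.

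Stress granule, syndrome and zinc finger genes lay more often on the higher than on the lower side in the fit on all libraries. Of 26 stress granule genes, whose proteins gather stalled mRNA in the cytoplasm, 7 were nominally higher (26.9%, against 4.24% of all genes) and 0 lower, with a median log2 fold change of 0.07. Their transcripts had a median GC of 43.6%, and in the lowest quartile of GC 15.1% of genes were nominally higher. Fmr1, the fragile X gene, ran from 31.6 through 54.3 to 76.9 CPM in Mbd5+/GT mice and from 20.97 through 34.4 to 69.2 CPM in WT mice, a log2 fold change of 0.30 (standard error 0.10, unadjusted p = 0.010 by edgeR). Ythdf3, a reader of m6A, ran from 46.1 through 69.0 to 84.9 CPM and from 32.0 through 45.3 to 86.5 CPM, at 0.28 (standard error 0.10). All 10 Mbd5+/GT mice were above the WT median in Ythdf3 and 8 in Fmr1, and both genes were higher within each litter. With the GC score in the fit 0 of 26 were nominally higher and with the length score 2, and without WT replicates 2 and 7, or without litter 2, there were 0. Litter and sex as covariates gave 9, and the fit without surrogate variables 5. This list was picked because the study had pointed to stress granule genes in these samples, so its direction is not independent evidence.

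Of 13 genes whose loss causes syndromes that resemble the 2q23.1 deletion, 6 were nominally higher (46.2%) and 0 lower, and all 13 fitted values were above 0 (median 0.10). Ube3a, the Angelman syndrome ubiquitin ligase, ran from 45.8 through 78.3 to 108 CPM in Mbd5+/GT mice and from 31.5 through 43.8 to 100 CPM in WT mice, a log2 fold change of 0.35 (standard error 0.13, unadjusted p = 0.013 by edgeR). Mef2c, a transcription factor of neurons, ran from 94.7 through 231 to 446 CPM and from 85.0 through 172 to 305 CPM, at 0.22 (standard error 0.065). Fmr1 is shared with the stress granule list, and Atrx, a chromatin remodeller, was at 0.24 (standard error 0.082). Rai1, the Smith-Magenis gene, and Ehmt1, the Kleefstra gene, were at 0.03 and 0.10 and did not pass. The groups overlapped in all 6. The members have long, AT-rich transcripts (median 9124 bases, 42.3% GC), and 3 were nominally higher with the GC score in the fit, 2 with the length score and 1 without WT replicates 2 and 7. Without litter 2, 0 of 13 were nominally higher and the median was 0.01. With litter and sex as covariates 5 were nominally higher, and without surrogate variables also 5.

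Among 380 zinc finger genes named Zfp, Zkscan or Zscan, 36 were nominally higher (9.47%) and 4 lower (1.05%), with a median of 0.04. Their transcripts had a median GC of 44.8%, and in the lowest quartile of GC 15.1% of genes were nominally higher. Zfp131 and Zfp991 had the smallest p, and Zfp365, the most abundant, was at 0.06 (standard error 0.068). With the GC score in the fit 17 were higher and 3 lower, and with the length score 22 and 9. Without WT replicates 2 and 7 there were 21 and 2, without litter 2 there were 7 and 0, and with litter and sex as covariates 72 and 3. Many of these genes have close paralogs, so single counts are uncertain. Enzymes of histone lysine methylation gave 3 of 38 nominally higher and 0 lower, among them Kmt2c at 0.15 (standard error 0.057) and Kmt2e at 0.19 (standard error 0.076). With the length score in the fit 0 were higher and 3 lower, and with the GC score 2 and 0. Of 28 chromatin remodelling genes, 1 was nominally higher, which was Atrx, and 0 were lower.

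Of 39 genes for glutamate receptors and the postsynaptic density, 4 were nominally higher (10.3%) and 0 lower, with a median of 0.01. Gria3, an AMPA receptor subunit, ran from 159 through 200 to 295 CPM in Mbd5+/GT mice and from 123 through 174 to 244 CPM in WT mice, a log2 fold change of 0.18 (standard error 0.066). Of 19 genes for GABA receptors and synthesis, 3 were nominally higher (15.8%) and 0 lower. The transcripts of this GABA list had a median GC of 44.0%, and in the lowest quartile of GC 15.1% of genes were nominally higher. Gabrb1, a beta subunit of the GABA-A receptor, was at 0.16 (standard error 0.059). With the GC score in the fit 0 genes of either list were nominally higher, and with the length score 1 glutamate gene was higher and 1 lower and 3 GABA genes were higher. Litter and sex as covariates gave 5 higher glutamate and 3 higher GABA genes, and without litter 2 there were 1 and 0. Among 18 dopamine receptor and signalling genes, 1 was nominally lower and 0 higher. It was Drd3, near the limit of detection (medians 0.321 and 0.475 CPM). Without WT replicates 2 and 7, 5 of these 18 genes were nominally lower, with a median of -0.19. Of 11 opioid and neuropeptide genes 0 passed in either direction, with a median of -0.17 and 10 of 11 fitted values below 0, and without WT replicates 2 and 7 there were 2 lower. Of 17 immediate early genes 1 was nominally lower, Arc, at -0.30 (standard error 0.13), and of 16 clock genes 1 was nominally higher, Clock, at 0.13 (standard error 0.058). Of 20 chaperone and 22 cholesterol synthesis genes, 0 passed in either direction, and 2 chaperone genes were nominally higher with the GC score in the fit.

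The markers of projection neurons were spread widely in both genotypes, and the count of markers that differed between genotypes varied with the libraries and covariates used. With all libraries, 1 of 8 direct-pathway markers was nominally lower (Eya1), 0 of 5 indirect-pathway markers, and 1 of 20 markers of both pathways, Actn2, at -0.30 (standard error 0.092). Drd1 ran from 76.4 through 132 to 324 CPM in Mbd5+/GT mice and from 11.8 through 170 to 291 CPM in WT mice, with a log2 fold change of 0.02 (standard error 0.17). Drd2 ran from 29.5 through 77.1 to 211 CPM and from 2.86 through 88.9 to 213 CPM, at -0.02 (standard error 0.22). Neither gene differed beyond its error. Over all 18327 genes of the fit without WT replicates 2 and 7, 312 were nominally higher and 688 lower. In that fit 10 of the 20 shared markers were nominally lower and 0 higher, with a median of -0.23 against -0.12 with these libraries. With these libraries kept, the median was -0.27 without litter 2 (1 lower), -0.18 with litter and sex as covariates (0 lower) and -0.07 without surrogate variables (0 lower). In the fit without WT replicates 2 and 7, Ppp1r1b was at -0.36 (standard error 0.099), against -0.12 (standard error 0.22) with all libraries. Without these 2 libraries Pde1b, a calmodulin-dependent phosphodiesterase, was at -0.32 (standard error 0.095), and Penk, the enkephalin precursor, at -0.32 (standard error 0.13). In the same fit Drd1 and Drd2 were at -0.18 and -0.21 without passing the level, and the lowest adjusted p among these markers was 0.80 by edgeR. These 2 WT libraries were left out because they were low in the same markers, which raises the WT level by construction, so the counts are a description only.

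Markers of other cells gave scattered calls. Of 12 interneuron markers 0 passed in either direction. Pvalb, of fast-spiking interneurons, had medians of 50.3 and 28.9 CPM with a log2 fold change of -0.04 (standard error 0.34), and Chat, of cholinergic interneurons, 10.2 and 13.1 CPM with -0.21 (standard error 0.31). In oligodendrocyte precursors 2 of 8 markers were nominally lower, Gpr17 at -0.23 (standard error 0.084) and Bmp4 at -0.38 (standard error 0.16), and all 8 fitted values were below 0. Of 10 markers of mature oligodendrocytes 0 passed. Of 10 microglial markers 1 was nominally higher and 2 lower: P2ry12, the purinergic receptor, was at 0.27 (standard error 0.092) and Tmem119 at -0.16 (standard error 0.064). Of 10 astrocyte markers 1 was nominally higher, the gap junction gene Gja1, at 0.22 (standard error 0.074), and of 10 endothelial and mural markers 1 was nominally lower, Vtn, at -0.21 (standard error 0.072). Markers of 1 cell type that move in opposite directions do not give a direction for that cell type. Of 9 cortical markers 1 was nominally higher (Rorb, at 0.22, standard error 0.10), and of 5 thalamic markers 1 was nominally lower (Gbx2, at -0.89, standard error 0.39). In the lists of hypothalamus (6 tested), ependyma (16), choroid plexus (9), meninges (10) and erythrocytes (5), 0 genes passed. The choroid plexus median was -1.29 with 9 of 9 values below 0, and with a standard error of 1.48 for Ttr. It was -0.01 when litter and sex were the covariates, -0.01 without litter 2 and -0.41 without surrogate variables, and the summed markers had the higher median in Mbd5+/GT mice (140.1 against 85.2 CPM).

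The surrogate variables and the library measures below came from the same counts, which favours correlations between them. The correlations given here are therefore a description only. What the surrogate variables took up was read from their correlation with measures of the libraries, over 16 relations. The first followed the log2 summed markers of both projection neuron pathways, with Pearson's r = 0.86 (adjusted p = 8e-05 in a permutation test, n = 18), Spearman's rho = 0.83 (adjusted p = 0.00024 in a permutation test) and r = 0.81 without the 2 most distant libraries. The second followed the summed choroid plexus markers, with r = 0.71 (adjusted p = 0.0043 in a permutation test, n = 18), rho = 0.77 (adjusted p = 0.0017 in a permutation test) and r = 0.74 without 2 libraries. The third followed the length score, with r = 0.89 (adjusted p = 8e-05 in a permutation test, n = 18), rho = 0.89 (adjusted p = 0.00016 in a permutation test) and r = 0.87 without 2 libraries. The unadjusted p of the r of the first and the third was 1e-05, the smallest that 100000 permutations could give. The GC score passed with none of them after adjustment. In the main comparison the genotype difference in projection neuron markers was thus estimated beside a covariate that followed those markers.

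Among genes within 10 Mb of the trap, more were nominally higher than nominally lower. Whether their share differed from that of genes of like GC content was not tested. Within 10 Mb of Mbd5 on either side, 55 other genes were tested, of which 8 were nominally higher (14.5%, against 4.24% of all genes) and 0 lower, with a median of 0.04. Orc4, a subunit of the origin recognition complex, ends at 48950277 and so overlaps the start of Mbd5 on the opposite strand. The fitted log2 fold change was 0.23 (standard error 0.091, unadjusted p = 0.022 by edgeR), and within litters 1, 2 and 3 the differences were 0.57, 0.58 and 0.09. Acvr2a, an activin receptor whose span ends at 48903269 and overlaps that of Orc4 from 48902824, was at 0.28 (standard error 0.12, unadjusted p = 0.028 by edgeR), with 0.78, 0.35 and 0.49 in the litters. Kif5c, a neuronal kinesin, was at 0.16 (standard error 0.061). As the strand setting of the counts is not named, reads in the overlap of Orc4 with Mbd5, and in that with Acvr2a, cannot be told apart.

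Whether these differences were particular to striatum was asked with the genotype by region interaction in 1 fit over all 54 libraries without surrogate variables, in which the regions share their mice. Over 20477 genes, 0 had an adjusted p under 0.05 for striatum against cortex or against cerebellum by edgeR's quasi-likelihood test. At an unadjusted p under 0.05, 865 genes differed from cortex (4.22%), 661 with a more positive effect in striatum and 204 with a more negative one, and 548 differed from cerebellum (2.68%), 341 and 207. Of the 12 named higher genes, 11 passed this unadjusted level against cortex, 10 against cerebellum and 9 against both. Togaram1 had a log2 fold change of -0.07 (standard error 0.046) in cortex and 0.07 (standard error 0.058) in cerebellum, and the interactions had an unadjusted p of 0.0049 and 0.019. Gopc, at -0.03 (standard error 0.036) in cortex and 0.00 (standard error 0.034) in cerebellum, had 0.0033 and 0.0073. These 12 genes were chosen for a large effect in striatum, which favours such differences. Of the 11 named lower genes other than Mbd5, 1 passed against cortex and 2 against cerebellum. The difference in Mbd5 itself was 0.10 (standard error 0.17) from cortex and -0.04 (standard error 0.17) from cerebellum. Of the 3439 genes in the lowest quartile of GC, 457 were more positive in striatum than in cortex and 5 more negative at the unadjusted level, so that the interaction carried the same base composition. Of the 76 oxidative phosphorylation genes 0 differed from cortex and 3 from cerebellum.

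Both sexes held both genotypes, although all mice of litter 2 were males and all of litter 1 females. By the genotype by sex interaction 0 of 18546 genes had an adjusted p under 0.05 and 301 (1.62%) had an unadjusted p under 0.05, 188 with a more positive effect in males and 113 with a more negative one, by edgeR's quasi-likelihood test. DESeq2 also called 0 genes after adjustment. Of the 24 named genes 0 passed the unadjusted level. The log2 fold change of Mbd5 was -0.62 in males and -0.28 in females. The fitted difference of -0.32 (standard error 0.20, unadjusted p = 0.12 by edgeR) did not pass the unadjusted level. With 3 WT males, and sex tied in part to litter, it does not show that the sexes were alike.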

How the data were processed

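PolyA RNA-seq libraries of the striatum of 10 Mbd5+/GT and 8 WT mice were analysed, each from a separate mouse. The authors deposited raw whole-number counts per gene, made with STAR 2.4.2 (GeneCounts) on GRCm38 after FastQC 0.10.1, per the submitters' processing notes and the study's methods. STAR's gene counts leave out reads that map to several places. The strand setting is not given in the sources used here, so overlapping and antisense genes are uncertain. Of 47069 gene rows, 18546 exceeded 4 counts in 8 libraries or more and were tested, and 92 ERCC spike-in rows were kept out of library sizes. Annotation matched 18466 of the genes tested, and promoter sequences came from RefSeq.

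Genotype was tested with edgeR 4.0.16 (quasi-likelihood test, TMM scaling) with 4 surrogate variables from sva 3.50.0, in R 4.3.3, with Benjamini-Hochberg adjustment. DESeq2 1.42.0 was an alternative. CPM is the count divided by the TMM-scaled library size, and log2 CPM for single values and scores used a pseudocount of 0.5 CPM. The fit was tested on simulated data. Named genes were every gene with an adjusted p under 0.05, the 12 protein-coding genes with the smallest p in each direction at a mean of at least 1 CPM, and of each list up to 2 genes with the smallest p and the most abundant one. Some genes that the rule named are not reported here. In lists of 12 genes or fewer any member could be named. Outside this rule, and named after their values were seen, were the further syndrome genes (Ube3a, Atrx, Rai1, Ehmt1), Pde1b, Penk, the neighbours of Mbd5 and the genes that passed every alternative. The members and the gene lists were chosen with earlier results of these data known.

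Mouse numbers pair the regions because the 3 regions came from the same animals. The correlation of a mouse's striatum deviations with its cortex deviations ran from -0.50 to 0.63 over mice (median 0.10, over 0.1 in 9 of 18), and with its cerebellum deviations from -0.37 to 0.50 (median 0.089, over 0.1 in 7 of 18), over 14880 genes.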

Additional observations from a re-analysis of the deposited data

Results flagged for a closer look

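Over 92 groups of library measures, 6 had 1 library far from the rest of its genotype by Dixon's test, and chance flags about 1 in 20 groups. Gm42418 took 6.89% of the counts in Mbd5+/GT replicate 8 and 9.49% in WT replicate 6. Mbd5+/GT replicate 1 had the highest summed thalamic markers (582.5 CPM) and the highest summed hypothalamic markers (108.6 CPM) of its genotype. Mbd5+/GT replicate 3 had the lowest summed microglial markers (375.1 CPM). WT replicate 8 had the highest summed astrocyte markers of the WT mice (5242 CPM). The part of these libraries in the gene results was not tested beyond leaving out each in turn.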

How the results depend on the processing

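Mbd5 kept its direction in all 31 alternatives (log2 fold change -0.55 to -0.43) and lost its adjusted p under 0.05 in 3: without surrogate variables (-0.43, adjusted p = 0.83 by edgeR), with litter and sex as covariates (-0.43, 0.53) and without litter 2 (-0.49, 1.0). Leaving out each library in turn gave -0.53 to -0.47. The number of genes with an adjusted p under 0.05 was 3 with DESeq2, 0 in those 3 fits, and 1 to 485 without 1 library, with 3 without Mbd5+/GT replicate 8 and 485 without WT replicate 8. The nominally higher genes numbered 389 with at least 10 counts in every library, 119 without litter 2, 367 without the repeated libraries, and 289 to 1741 without 1 library. They moved by more than 1.5 times without Mbd5+/GT replicate 2, 3, 5 or 7 or WT replicate 1, 2, 4, 5, 6 or 8. The nominally lower genes numbered 262 with at least 10 counts in every library, 1043 without a filter, 320 without surrogate variables, 164 without litter 2, and 325 to 1088 without 1 library, and moved as much without Mbd5+/GT replicate 3, 6 or 7 or WT replicate 1 or 8. Of 4 alternatives chosen after seeing the data, the GC score gave 400 higher and 363 lower, the length score in place of the surrogate variables 269 and 219, and leaving out WT replicates 2 and 7 gave 312 higher. The other 23 named genes gave 689 values on the same side of the adjusted threshold, 22 that newly passed it and 0 reversed, and since none of these genes had passed it on all libraries, none could lose it. With the mouse as replicate block, 0 genes differed between regions after adjustment, and 804 (cortex) and 541 (cerebellum) did at an unadjusted p under 0.05, against 865 and 548. The block changed no call after adjustment. The cause of these shifts was not tested.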
